A study of Mus musculus with 30 samples.

Results

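The Hedgehog receptors, co-receptors and Gli transcription factors were followed across mouse neurosphere cultures grown in 3 growth factor conditions. The members were the 10 genes Shh, Ptch1, Smo, Gli1, Gli2, Gli3, Gas1, Cdon, Boc and Hhip, taken as every probe set whose symbol in the platform annotation was exactly one of these names. These 10 of the 18193 genes named on the MOE430A and MOE430B oligonucleotide arrays were carried by 26 of 45137 probe sets, 18 on MOE430A and 8 on MOE430B. Of these 26, 13 reached the array median on at least 3 of the 15 arrays of their type and were tested, among 29796 probe sets tested in all. The 13 stand for 8 of the genes, since no probe set of Gli1 or Gli2 reached that level.

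Neurospheres are floating clusters that neural stem and progenitor cells form in serum-free medium, and here all came from basal ganglia of mouse embryos at embryonic day 14. Total RNA of 15 samples was hybridised to both array types, which gave 30 arrays. EGF samples (n = 6) were neurospheres raised in epidermal growth factor from the medial and lateral ganglionic eminences. PDGF with NT-3 samples (n = 3) were raised in platelet-derived growth factor AA and neurotrophin 3 from the anterior entopeduncular area, and PDGF samples (n = 6) in platelet-derived growth factor AA alone from that same area. The medium was DMEM:F12 supplemented with N2 and B27 throughout, and every culture was 7 days old. PDGF-AA is labelled at 100 ng/ml for PDGF samples, whereas the labels of PDGF with NT-3 samples give 100 ng/ul for each factor, and nothing else in the labels bears on that unit. EGF is named in the titles, descriptions and purification notes of EGF samples, but their growth protocol lists PDGF-AA in its place, and no EGF concentration is labelled. RNA concentrations were labelled 192, 287 and 171 ng/ul for PDGF with NT-3 replicates 1, 2 and 3, and 100 ng/ul for every EGF and PDGF sample. The purity of PDGF with NT-3 cultures is labelled as unknown. The labels do not say whether replicates came from separate cultures, so p-values measure only the spread between these samples. Brain region and growth factor changed together between EGF samples and the other samples and cannot be told apart.

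In Hedgehog signalling the secreted ligand, of which Sonic hedgehog (Shh) is the one best known in the forebrain, binds the receptor Patched 1 (Ptch1), which in the absence of ligand holds the membrane protein Smoothened (Smo) inactive. Gas1, Cdon and Boc are surface proteins that bind the ligand together with Ptch1, and active Smo acts through the Gli factors, of which Gli2 is mainly an activator, Gli3 is processed into a repressor when no ligand is present, and Gli1 is an activator whose own transcription the pathway turns on. Ptch1 and Hhip, a surface protein that captures ligand, are also transcriptional targets and dampen the signal. In the embryonic ventral forebrain the pathway patterns the ganglionic eminences and takes part in the formation of oligodendrocyte progenitors.

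Promoter sequences are printed for the 4 genes with at least 1 probe set called higher in EGF than in PDGF samples, since the results turn on them. RefSeq's GRCm38.p6 table held a window from 250 bases before to 50 bases after a start for 7 of the 10 members and not for Shh, Gli1 and Boc. Capitals mark CG dinucleotides. The windows are chr13:15463473-15463772 on the plus strand for Gli3, chr13:60177486-60177785 on the minus strand for Gas1, chr9:35451826-35452125 on the plus strand for Cdon and chr6:29735247-29735546 on the plus strand for Smo.
Gli3: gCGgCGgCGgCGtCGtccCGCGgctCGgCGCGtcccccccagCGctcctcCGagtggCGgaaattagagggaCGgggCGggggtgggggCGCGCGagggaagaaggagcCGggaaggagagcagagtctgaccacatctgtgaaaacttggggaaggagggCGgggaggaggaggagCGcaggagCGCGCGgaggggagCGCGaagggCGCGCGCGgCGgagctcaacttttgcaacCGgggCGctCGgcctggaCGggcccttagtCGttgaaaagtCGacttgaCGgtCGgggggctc
Gas1: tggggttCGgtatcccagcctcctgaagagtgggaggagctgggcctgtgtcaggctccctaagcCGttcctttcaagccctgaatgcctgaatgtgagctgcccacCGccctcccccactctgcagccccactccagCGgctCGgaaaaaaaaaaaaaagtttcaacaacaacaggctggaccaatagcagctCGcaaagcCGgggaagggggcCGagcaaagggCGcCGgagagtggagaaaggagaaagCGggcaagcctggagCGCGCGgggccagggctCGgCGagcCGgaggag
Cdon: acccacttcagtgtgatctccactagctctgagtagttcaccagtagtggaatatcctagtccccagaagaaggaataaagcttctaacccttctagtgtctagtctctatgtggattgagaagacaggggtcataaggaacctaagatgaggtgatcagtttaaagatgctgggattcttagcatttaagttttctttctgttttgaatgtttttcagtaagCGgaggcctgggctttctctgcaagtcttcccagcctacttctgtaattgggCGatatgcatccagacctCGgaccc
Smo: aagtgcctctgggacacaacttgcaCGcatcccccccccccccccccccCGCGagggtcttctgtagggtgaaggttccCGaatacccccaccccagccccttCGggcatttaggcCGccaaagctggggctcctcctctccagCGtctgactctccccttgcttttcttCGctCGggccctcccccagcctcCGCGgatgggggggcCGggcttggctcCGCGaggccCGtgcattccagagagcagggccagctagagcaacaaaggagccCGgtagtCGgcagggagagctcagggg
The Gli3 window held 39 CG dinucleotides at 71.0% GC, the Gas1 window 17 at 62.3%, the Smo window 17 at 67.7% and the Cdon window 3 at 44.7%, against medians of 7 and 52.7% over 32851 promoters. Only 4.45% of all promoters had as many CG dinucleotides as Gli3 or more, and 31.4% had as few as Cdon or fewer, so these windows lay on both sides of the median. In the same build Gli3 spans chr13:15463723-15730026, Gas1 chr13:60174405-60177535 and Smo chr6:29735497-29761366. The Cdon window lies inside the gene's RefSeq span, chr9:35421528-35507652, and so marks an inner start. The sequence GACCACCCA, the best known Gli binding motif, was found on either strand in 0 of the 7 members' windows and in 0.253% of all promoters. That says only that these letters are not in these windows.

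Signals below are the deposited MAS5 values on a linear scale with arbitrary units. For EGF and PDGF samples they are given as the lowest, median and highest of 6, and for PDGF with NT-3 samples as replicates 1, 2 and 3. Differences are on the log2 scale of signal plus a pseudocount of 52.0 on MOE430A and 115 on MOE430B, which understates changes of dim probe sets, and adjusted p-values are limma's with Benjamini-Hochberg adjustment over all 29796 probe sets, two-sided, at a threshold of 0.05. A probe set's signal depends on its probes, so levels are not compared between probe sets.

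Across the members, EGF samples stood apart from PDGF samples by higher Gli3, Gas1 and Cdon, and by 1 of the 3 Smo probe sets. The mean over all 3 Smo probe sets was not called (-0.06, adjusted p = 0.944). It includes Smo 1442215_at, whose EGF signals lay around the pseudocount. Between EGF and PDGF samples 6 of the 13 tested probe sets were called higher and 0 lower, where 4.39% of all tested probe sets were called higher, 4.04% lower and 8.43% in either direction. These 6 probe sets also had no overlap between the 12 samples, which 3.45% of all tested probe sets showed in that direction and 2.86% in the other. Among the 6, Gli3 1455154_at, reached the array median in EGF samples alone and so had to differ to be tested. Without it 5 of 12 were called higher, and these 5 did not overlap. A further 2 of the 13 had an unadjusted p under 0.05, a level at which no share of all probe sets was computed. Between PDGF with NT-3 and PDGF samples 1 was called higher, Gas1, and 1 lower, Gli3, a share near the 17.2% of all tested probe sets called in this comparison (6.33% higher and 10.8% lower). The groups did not overlap for these 2, as for 8% of all tested probe sets in the higher and 9.63% in the lower direction. Between EGF and PDGF with NT-3 samples 4 were called higher and 0 lower, against 11% and 6.91% of all. In that comparison 4 probe sets did not overlap and were higher, against 10.3% of all higher and 8.38% lower. Without Gli3 1455154_at 3 of 12 were called higher there and 3 did not overlap. The median difference of the 13 probe sets was 0.60, 0.14 and 0.43 in the 3 comparisons, beside -0.03, -0.105 and 0.09 over all tested probe sets, and 0.54, 0.09 and 0.37 without Gli3 1455154_at. These counts describe only probe sets that passed the filter.

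**Figure D1:**
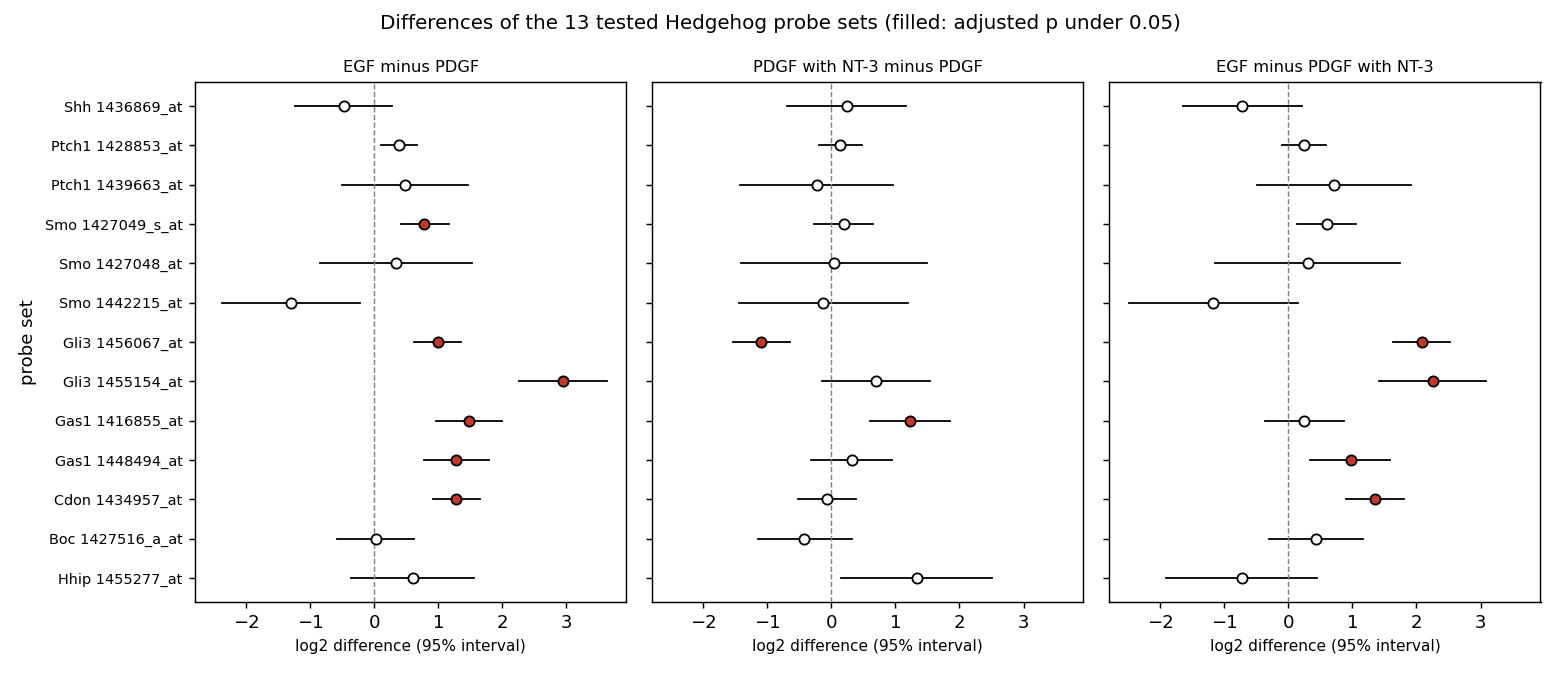
Log2 difference of each of the 13 tested Hedgehog probe sets with its 95% confidence interval (horizontal axis) in EGF minus PDGF (left), PDGF with NT-3 minus PDGF (middle) and, on the right, EGF minus PDGF with NT-3. Filled points had an adjusted p under 0.05. The 6 filled points of the left panel all lie right of 0, Gli3 1456067_at changes side between the left and middle panels, and Gas1 1416855_at lies right of 0 in both.

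The ligand Shh was measured by 1436869_at on MOE430B above the filter. It had signals of 991, 2638 and 5788 in EGF samples, 3129.6, 4332 and 3775 in PDGF with NT-3 samples and 2086, 3191 and 5517 in PDGF samples. The 3 groups overlapped, and the EGF samples alone covered the whole range, with replicates 3 and 4 lowest and replicate 5 highest. Shh differed by -0.48 ± 0.35 (SE, adjusted p = 0.53) between EGF and PDGF samples, with a 95% interval of -1.24 to 0.28, which leaves room for change in either direction. The difference was 0.24 ± 0.43 (SE, adjusted p = 0.743) between PDGF with NT-3 and PDGF samples and -0.72 ± 0.43 (SE, adjusted p = 0.263) between EGF and PDGF with NT-3 samples. The other Shh probe set, 1427571_at, stayed under the filter with signals of 15.5, 79.1 and 217 in EGF, 38.5, 295 and 398 in PDGF with NT-3 and 28.8, 60.8 and 112 in PDGF samples.

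The ligands Dhh and Ihh are not among the 10 genes but share their receptors. Dhh, desert hedgehog, averaged 4780 ± 1010 in EGF, 1290 ± 344 in PDGF with NT-3 and 946 ± 370 in PDGF samples (SD, n = 6, 3 and 6). Its signal was higher by 2.34 ± 0.25 on the log2 scale in EGF than in PDGF samples (limma adjusted p = 7.26e-06) and by 1.85 ± 0.31 in EGF than in PDGF with NT-3 samples (adjusted p = 0.000482). Ihh, Indian hedgehog, averaged 630 ± 152 in EGF, 111 ± 121 in PDGF with NT-3 and 712 ± 273 in PDGF samples. It was lower in PDGF with NT-3 than in PDGF samples (log2 difference -2.37 ± 0.45, adjusted p = 0.0019). The PDGF with NT-3 mean of Ihh lies under the array medians of 456 to 672 and not far above the pseudocount of 52.0. Ihh thus had to be high in other samples to be tested, and its differences count as no separate support. How far the size of the Ihh difference depends on the pseudocount was not tested. Of 12 listed genes of ligands and their release, 11 were on the arrays and 6 were tested, each by its brightest probe set. In this list 1 was higher and 0 lower between EGF and PDGF samples, and 0 higher and 1 lower between PDGF with NT-3 and PDGF samples. Between EGF and PDGF with NT-3 samples 2 were higher and 0 lower. Ihh is the 1 called lower and is among the 2 called higher. The list medians were -0.08, -0.40 and 0.44, beside -0.03, -0.121 and 0.106 over the 13882 genes tested by 1 probe set each, of which 6.01%, 7.12% and 13.1% were called higher in the 3 comparisons and 5.64%, 12.5% and 7.8% lower.

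The receptor Ptch1 lay above the array median on all 15 arrays with 1428853_at and was called in none of the 3 comparisons. This probe set had signals of 5293, 6671 and 7563 in EGF samples, 7024, 4436 and 5685 in PDGF with NT-3 samples and 4084, 5254 and 5817 in PDGF samples. Of the EGF samples 5 of 6 lay above every PDGF sample, and EGF replicate 4 fell among them. The difference of 0.38 ± 0.13 (SE, adjusted p = 0.0818) between EGF and PDGF samples had a 95% interval of 0.10 to 0.66 and an unadjusted p of 0.00831, and it did not pass the threshold. It passed when EGF replicate 4 was left out (0.45, adjusted p = 0.0362) and under 4 of the other settings, at adjusted p-values of 0.0384 to 0.0478. The difference was 0.14 ± 0.16 (SE, adjusted p = 0.588) between PDGF with NT-3 and PDGF samples and 0.24 ± 0.16 (SE, adjusted p = 0.309) between EGF and PDGF with NT-3 samples. Ptch1 1439663_at gave 0.48 ± 0.45 (SE, adjusted p = 0.665) in EGF minus PDGF with overlapping groups, and 1450824_at stayed under the filter at signals of 39.8 to 659.6.

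Smo, the membrane protein that Ptch1 holds inactive, was read by 3 probe sets that did not move alike. Smo 1427049_s_at had signals of 1652, 1872 and 2061 in EGF samples, 1271, 1437 and 1010.1 in PDGF with NT-3 samples and 819, 1117 and 1276 in PDGF samples. All 6 EGF samples lay above every other sample. Its difference was 0.78 ± 0.17 (SE, adjusted p = 0.00647) in EGF minus PDGF, which is 1.72-fold, and 0.60 ± 0.21 (SE, adjusted p = 0.0588) in EGF minus PDGF with NT-3, which did not pass although the groups did not overlap. Between PDGF with NT-3 and PDGF samples it was 0.19 ± 0.21 (SE, adjusted p = 0.584). Smo 1442215_at pointed the other way, with signals of 64.4, 77.7 and 159 in EGF, 312, 912 and 102 in PDGF with NT-3 and 64.9, 555 and 936 in PDGF samples. All 6 EGF samples were low for it, and PDGF replicates 4 and 6 were as low as they were. Its EGF signals lay around the pseudocount of 115. It reached the array median on 0 EGF, 1 PDGF with NT-3 and 2 PDGF arrays, so it was tested only through samples outside EGF. Its difference in EGF minus PDGF was -1.30 ± 0.49 (SE, adjusted p = 0.135), with an unadjusted p of 0.0174. Smo 1427048_at was widely spread, at 166, 898 and 1486 in EGF and 115, 742 and 1012 in PDGF samples, and gave 0.34 ± 0.54 (SE, adjusted p = 0.827). Averaged over its 3 probe sets, Smo differed by -0.06 between EGF and PDGF samples (adjusted p = 0.944), so the higher Smo in EGF samples rests on 1427049_s_at.

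**Figure D2:**
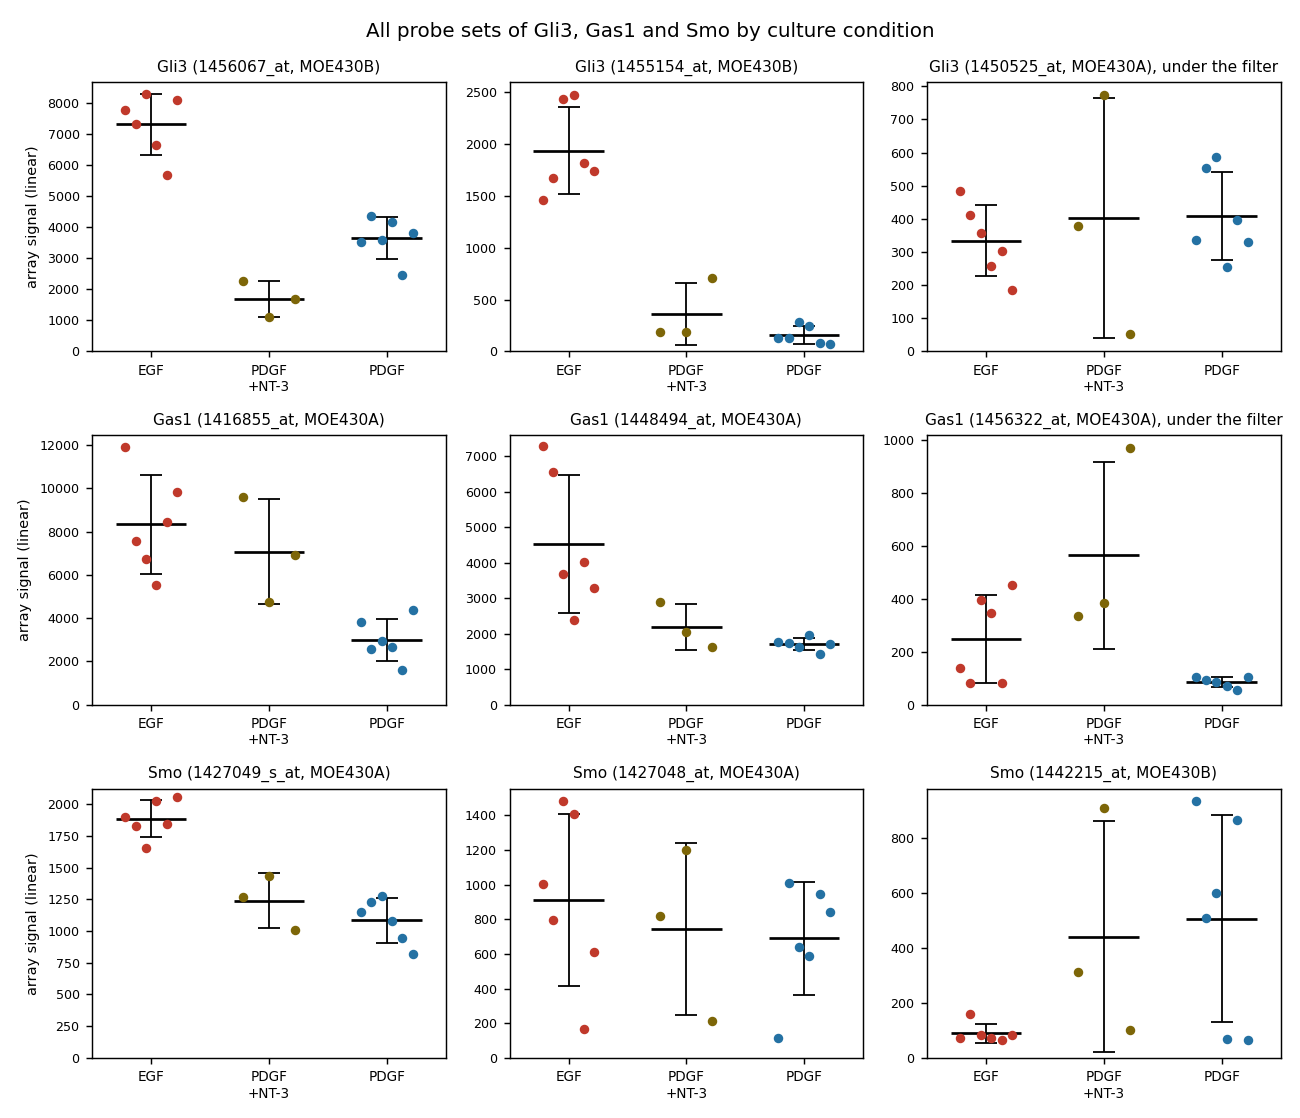
Signal (linear, arbitrary units; each panel has its own axis) of the 3 probe sets each of Gli3, Gas1 and Smo by condition, with 1 point per sample, a horizontal line at the mean and bars of 1 SD. Smo 1442215_at is low in all 6 EGF samples while Smo 1427049_s_at is highest there, and Gli3 1456067_at is lowest in PDGF with NT-3 samples while Gli3 1455154_at is not.

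Among the co-receptors Gas1 and Cdon were higher in EGF than in PDGF samples and Boc was not called. Gas1 is tethered to the membrane by a lipid anchor and was first known as a gene of growth-arrested fibroblasts. Its probe set 1416855_at had signals of 5535, 7999.7 and 11926 in EGF samples, 9582, 4721 and 6917 in PDGF with NT-3 samples and 1607, 2803 and 4359.5 in PDGF samples. Every EGF and every PDGF with NT-3 sample exceeded all PDGF samples. The difference was 1.48 ± 0.23 (SE, adjusted p = 4e-04) in EGF minus PDGF, which is 2.8-fold, and 1.23 ± 0.29 (SE, adjusted p = 0.00738) in PDGF with NT-3 minus PDGF, which is 2.35-fold. Between EGF and PDGF with NT-3 samples it was 0.25 ± 0.29 (SE, adjusted p = 0.591), with a 95% interval of -0.37 to 0.87. Without PDGF with NT-3 replicate 1, the brightest of the 3, the difference from PDGF samples was 0.99 and missed the threshold (adjusted p = 0.0524).

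Gas1 1448494_at separated EGF from PDGF samples too, with 2380.5, 3839 and 7288 in EGF samples, 2882, 2039 and 1634 in PDGF with NT-3 samples and 1432, 1726 and 1968 in PDGF samples. The PDGF samples lay close together and all 6 EGF samples lay above them, with EGF replicates 1 and 2 far above the rest. The difference in EGF minus PDGF was 1.28 ± 0.23 (SE, adjusted p = 0.00146). For PDGF with NT-3 minus PDGF this probe set gave 0.32 ± 0.29 (SE, adjusted p = 0.485), with overlapping groups. For EGF minus PDGF with NT-3 it gave 0.97 ± 0.29 (SE, adjusted p = 0.0263), again with overlap, a call that ended under 6 alternative settings, at adjusted p-values of 0.05 to 0.119. The third Gas1 probe set, 1456322_at, stayed under the filter at 81.4, 243 and 451 in EGF, 336, 385 and 972 in PDGF with NT-3 and 56.0, 89.6 and 106 in PDGF samples. Fitted without the filter it was higher in PDGF with NT-3 than in PDGF samples by 2.03 ± 0.48 (adjusted p = 0.0109), with no overlap.

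Cdon, an immunoglobulin-family co-receptor that binds Shh directly, was read by 1434957_at. Its signals were 5658, 9004 and 11894 in EGF samples, 4311, 3659 and 2367 in PDGF with NT-3 samples and 3056, 3639 and 3830.4 in PDGF samples. All 6 EGF samples lay above all 9 others, which shared a common range. The difference was 1.28 ± 0.17 (SE, adjusted p = 7.03e-05) in EGF minus PDGF, which is 2.43-fold, and 1.35 ± 0.21 (SE, adjusted p = 0.000271) in EGF minus PDGF with NT-3, which is 2.55-fold. Between PDGF with NT-3 and PDGF samples it was -0.07 ± 0.21 (SE, adjusted p = 0.858), with a 95% interval of -0.52 to 0.38. The other Cdon probe set, 1421452_at, stayed under the filter on all 15 arrays at signals of 25.7 to 165.2. Boc, the closest relative of Cdon, had signals of 698, 1133 and 1764 in EGF, 993, 728 and 675 in PDGF with NT-3 and 712, 1174 and 1624 in PDGF samples on 1427516_a_at. Its groups overlapped throughout, and the difference in EGF minus PDGF was 0.02 ± 0.28 (SE, adjusted p = 0.988), with a 95% interval of -0.59 to 0.62. In PDGF with NT-3 minus PDGF it was -0.42 ± 0.34 (SE, adjusted p = 0.427) and in EGF minus PDGF with NT-3 0.43 ± 0.34 (SE, adjusted p = 0.408). The remaining Boc probe sets, 1426869_at and 1427517_at, were below the array median on every array, at signals of 13.5 to 434.7.

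**Figure D3:**
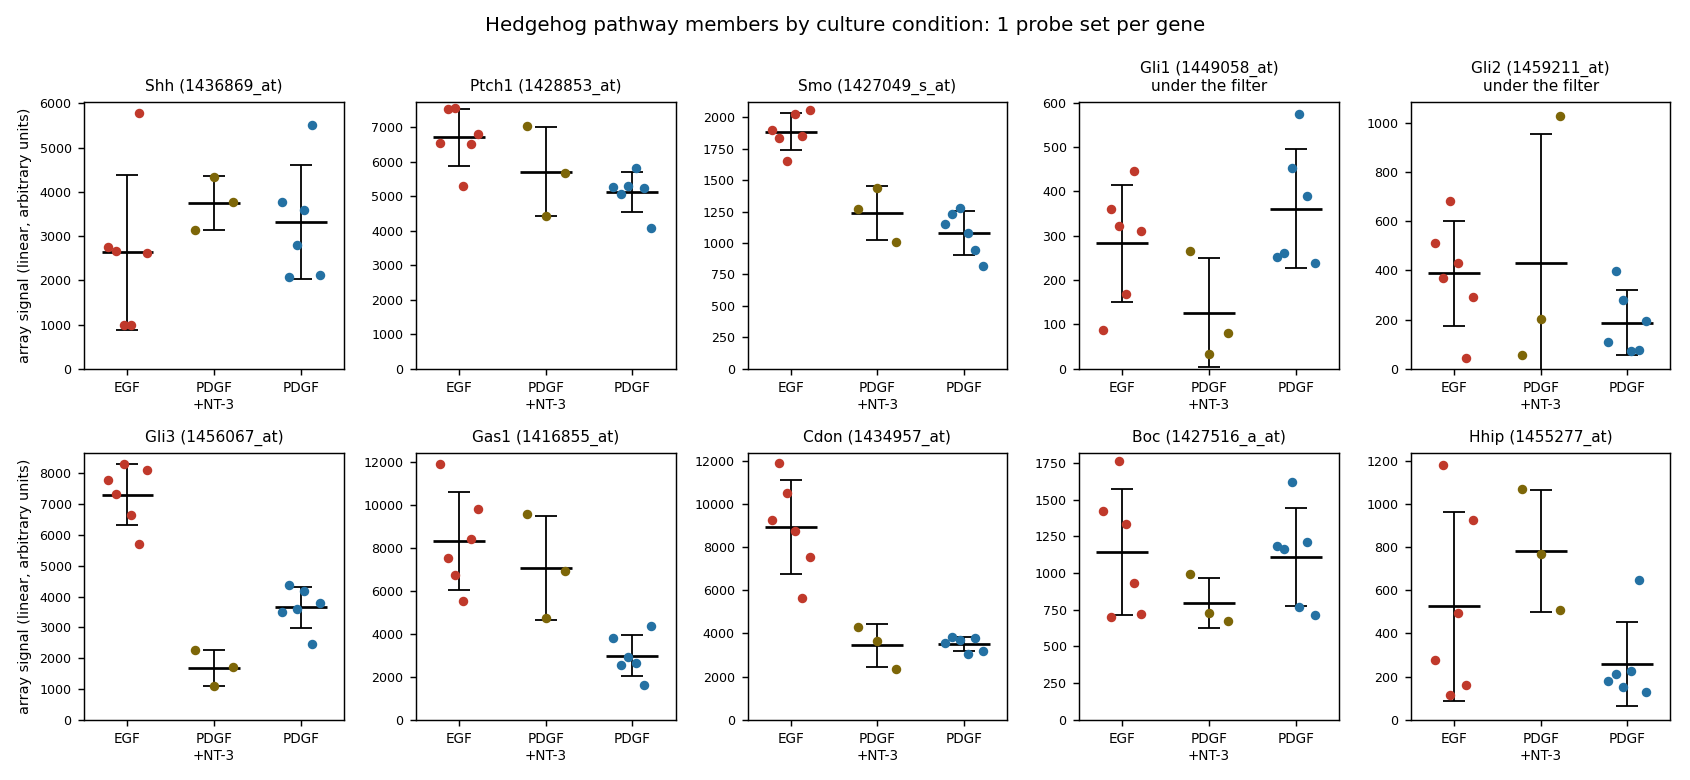
Signal (linear, arbitrary units; each panel has its own axis) of 1 probe set per gene by condition, the brightest that passed the filter or, for Gli1 and Gli2, the brightest of those under it; each point is a sample, the horizontal line is the mean and bars are 1 SD (n = 6, 3 and 6). EGF samples lie above PDGF samples without overlap for Smo, Gli3, Gas1 and Cdon, and the groups overlap for the other 6 genes.

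Of the Gli factors only Gli3 passed the filter. Gli3 1456067_at had signals of 5699, 7564 and 8310.1 in EGF samples, 2259, 1100.5 and 1704 in PDGF with NT-3 samples and 2475, 3704 and 4369 in PDGF samples. The 3 groups did not overlap, with EGF samples highest and PDGF with NT-3 samples lowest. Gli3 was higher in EGF than in PDGF samples by 1.98-fold, a difference of 0.99 ± 0.17 (SE, adjusted p = 0.000819). It was 2.14-fold lower in PDGF with NT-3 than in PDGF samples, a difference of -1.10 ± 0.21 (SE, adjusted p = 0.00187). The difference in EGF minus PDGF with NT-3 was 2.08 ± 0.21 (SE, adjusted p = 3.26e-06), which is 4.24-fold.

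Gli3 1455154_at, on the same array type, had signals of 1463, 1777 and 2472 in EGF samples, 189.7, 187 and 709 in PDGF with NT-3 samples and 70.8, 128 and 285 in PDGF samples. It reached the array median on its 6 EGF arrays and on no other, so it was tested only because it was high there and its difference counts as no separate support. The difference in EGF minus PDGF was 2.95 ± 0.31 (SE, adjusted p = 7.26e-06) and in EGF minus PDGF with NT-3 2.25 ± 0.39 (SE, adjusted p = 0.000664). Its PDGF signals lie around the pseudocount, and the EGF minus PDGF difference moved to 3.78 with a pseudocount of 1 and to 2.37 with the 25th percentile, so no fold is given. In PDGF with NT-3 minus PDGF the 2 Gli3 probe sets differed in sign. Here 1455154_at gave 0.70 ± 0.39 (SE, adjusted p = 0.227) with a 95% interval of -0.14 to 1.54, while 1456067_at had an interval of -1.54 to -0.65. Averaged over both, Gli3 differed by -0.20 in that comparison (adjusted p = 0.575). The third, 1450525_at on MOE430A, stayed under the filter at 186, 331 and 485 in EGF, 378, 775 and 52.7 in PDGF with NT-3 and 254, 366 and 585 in PDGF samples, and gave -0.26 ± 0.42 in EGF minus PDGF when fitted without the filter (adjusted p = 0.893).

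Gli1, whose transcription follows pathway activity, was below the median on nearly all arrays. Its probe set 1449058_at had signals of 87.3, 317 and 446 in EGF samples, 265, 33.9 and 79.7 in PDGF with NT-3 samples and 238, 325 and 573 in PDGF samples. It reached the array median on 1 of 15 arrays, and the groups overlapped. In the fit without a filter it gave -0.36 ± 0.40 in EGF minus PDGF (adjusted p = 0.807) and -1.37 ± 0.48 in PDGF with NT-3 minus PDGF (adjusted p = 0.0751). Gli2 was as dim, with signals of 45.0, 398 and 682 in EGF, 56.8, 201 and 1029.6 in PDGF with NT-3 and 73.6, 151 and 399 in PDGF samples on 1459211_at. Without the filter it gave 0.81 ± 0.56 in EGF minus PDGF (adjusted p = 0.606), and 1446086_s_at stayed between 13.7 and 200.7. No Gli1 or Gli2 probe set passed the threshold in that fit, which does not show that they did not change.

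Hhip, which captures ligand and is induced by the pathway, was read above the filter by 1455277_at alone, and that on just 3 arrays. These were 2 EGF, 1 PDGF with NT-3 and 0 PDGF arrays, so it was tested only through samples outside PDGF. Its signals were 114, 384 and 1181 in EGF samples, 1071, 766 and 509 in PDGF with NT-3 samples and 131, 198 and 649 in PDGF samples. PDGF with NT-3 replicates 1 and 2 exceeded all PDGF samples, while PDGF replicate 5 exceeded PDGF with NT-3 replicate 3. The difference in PDGF with NT-3 minus PDGF was 1.33 ± 0.54 (SE, adjusted p = 0.0997), with an unadjusted p of 0.0247, and in EGF minus PDGF 0.60 ± 0.44 (SE, adjusted p = 0.54). In EGF minus PDGF with NT-3 it was -0.73 ± 0.54 (SE, adjusted p = 0.38). The other 3 Hhip probe sets were under the filter, and in the fit without it 1421426_at gave -1.14 ± 0.37 in EGF minus PDGF (adjusted p = 0.0944).

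In all, 13 member probe sets stayed under the filter, with signals of 6.9 to 1283.1 and at most 2 arrays at the array median. Just inside the filter were Smo 1442215_at and Hhip 1455277_at at 3 arrays each, and just outside it Gli2 1459211_at at 2. Fitted without a filter, the 13 had differences of -1.14 to 0.92 in EGF minus PDGF. Of them 0 were called there, against 4.92% of all 45137 probe sets. The count called by limma was 1 in PDGF with NT-3 minus PDGF, the third Gas1 probe set, against 11.6% of all. It was 0 in EGF minus PDGF with NT-3, against 12.3%. The counts at an unadjusted p under 0.05 were 2, 3 and 3. No share of all probe sets was computed at that level.

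EGF and PDGF samples shared fluidics runs, the array washing and staining runs recorded with the scans, so that each of 3 runs held 2 EGF and 2 PDGF samples. All 6 called probe sets were higher in EGF samples within each run. Their EGF and PDGF samples did not overlap, so that sign was fixed beforehand and is no separate check. The differences within the runs were 2.76 to 3.30 for Gli3 1455154_at, 0.92 to 1.12 for Gli3 1456067_at, 1.11 to 1.76 for Gas1 1416855_at, 0.71 to 1.95 for Gas1 1448494_at, 0.88 to 1.48 for Cdon and 0.62 to 1.11 for Smo 1427049_s_at. With the run as a block 6 probe sets were called, Gli3 1455154_at among them. Ptch1 1428853_at ran from 0.19 to 0.52 and Smo 1442215_at from -1.83 to -0.91, so each kept its sign, whereas Shh (-1.57 to 0.18) and Boc (-0.22 to 0.43) did not. PDGF with NT-3 samples shared no run with the other samples, so run and condition cannot be told apart in both comparisons that use them.

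**Figure D4:**
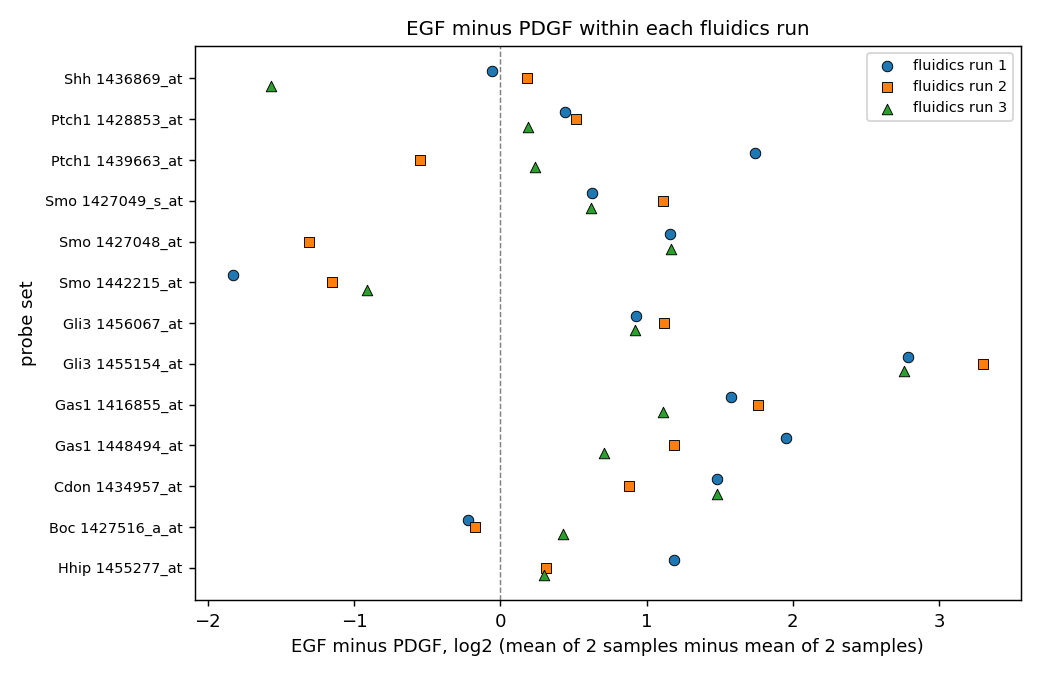
EGF minus PDGF log2 difference (horizontal axis) of each tested Hedgehog probe set within each of the 3 fluidics runs, as the mean of 2 EGF samples minus the mean of 2 PDGF samples. The symbols of Gli3, Gas1, Cdon, Smo 1427049_s_at and Ptch1 1428853_at all lie right of 0, and those of Shh, Boc, Smo 1427048_at and Ptch1 1439663_at lie on both sides.

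Markers of more than 1 cell type were read in these cultures, and bulk signals do not show whether they come from separate cells. In bulk RNA fewer cells of a type and less RNA per cell cannot be told apart. Summed signals of 6 astrocyte markers ran from 112947 to 198503 in EGF, 28589 to 33166 in PDGF with NT-3 and 23903 to 36252 in PDGF samples, with 3 of 6 called higher and 1 lower in EGF minus PDGF. The sum was carried by Slc1a3, while Gfap, the defining intermediate filament, averaged 930 in EGF, 143 in PDGF with NT-3 and 671 in PDGF samples and was called in none of the 3 comparisons (limma adjusted p = 0.773 in EGF minus PDGF). Summed signals of 6 oligodendrocyte progenitor markers ran from 51049 to 70094 in EGF, 144565 to 172700 in PDGF with NT-3 and 96182 to 125226 in PDGF samples, with 5 of 6 lower in EGF minus PDGF and 3 higher and 1 lower in PDGF with NT-3 minus PDGF. Summed signals of 6 neuronal markers ran from 31921 to 69971 in EGF, 50968 to 90052 in PDGF with NT-3 and 85785 to 132119 in PDGF samples. Of the neuronal markers 0 were called higher and 4 lower in EGF minus PDGF, and 0 higher and 3 lower in PDGF with NT-3 minus PDGF. Summed signals of 6 neural progenitor markers ran from 90139 to 126608 in EGF, 119311 to 143752 in PDGF with NT-3 and 81151 to 103463 in PDGF samples. Of these 1 was called higher and 0 lower in EGF minus PDGF. In PDGF with NT-3 minus PDGF 2 were higher, Vim and Fabp7, and 2 lower, Nes and Msi1. The largest part of this sum was Fabp7, at means of 69900 in EGF, 86300 in PDGF with NT-3 and 53100 in PDGF samples. Likewise Olig1, at 42900, 104000 and 60700, was the largest part of the oligodendrocyte progenitor sum. In EGF minus PDGF 6.01% of all genes were called higher and 5.64% lower, and in PDGF with NT-3 minus PDGF 7.12% and 12.5%. The part of these cell types in the Hedgehog differences was not tested. Lists for microglia, endothelium, meninges, red blood cells and ependyma summed to at most 4110 in any sample.

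Receptors of the factors were read as a check of the labels. Egfr was higher by 3.18 ± 0.16 in EGF than in PDGF samples (limma adjusted p = 8.73e-10), although 2 further Egfr probe sets ran the other way, and Pdgfra was lower (-3.44 ± 0.15, adjusted p = 1.1e-10). Ntrk3, the NT-3 receptor, averaged 2430 ± 576 in EGF, 5380 ± 590 in PDGF with NT-3 and 3730 ± 325 in PDGF samples, and did not pass in PDGF with NT-3 minus PDGF (0.51 ± 0.19, adjusted p = 0.0693). Array medians were 456 to 672 on MOE430A and 818 to 933 on MOE430B. Correlations over probe sets had medians of 0.855, 0.808 and 0.858 within EGF, PDGF with NT-3 and PDGF samples, and of 0.764 between PDGF with NT-3 and PDGF samples. The 3'/5' log2 signal ratio of Gapdh, a gauge of RNA integrity, was 3.47 to 3.81 in EGF, 4.10 to 4.20 in PDGF with NT-3 and 3.28 to 3.97 in PDGF samples on MOE430B, the array type that carries both tested Gli3 probe sets. On MOE430A, the array type of Gas1 1416855_at, the Gapdh ratio was 3.52 to 4.38 (median 4.21) in PDGF with NT-3 samples. In PDGF samples it was 3.65 to 4.12 (median 3.92). The Actb ratio there was 3.21 to 3.70 (median 3.62) in PDGF with NT-3 and 2.58 to 3.27 (median 3.04) in PDGF samples. The part of RNA integrity in the Gli3 and Gas1 differences was not tested. The array median on the log2 scale shifted by -0.13 on MOE430A in PDGF with NT-3 minus PDGF, and Gas1 1416855_at is to be read against it.

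Among the other pathway genes, those that regulate Smo and the Gli factors moved in both directions. Of 26 listed, 24 were on the arrays and 23 were tested. In EGF minus PDGF 4 were higher and 1 lower, in PDGF with NT-3 minus PDGF 1 higher and 4 lower, and in EGF minus PDGF with NT-3 4 higher and 1 lower. Over all genes 6.01%, 7.12% and 13.1% were called higher and 5.64%, 12.5% and 7.8% lower, so the counts of the last 2 comparisons lie near those shares. The list medians were 0.01, -0.22 and 0.20. Prkar1a, a regulatory subunit of the protein kinase A that primes Gli proteins for processing, was higher in EGF than in PDGF samples by 0.58 ± 0.12 (limma adjusted p = 0.003), although 1 further Prkar1a probe set ran the other way. Evc, a ciliary protein that relays the Smo signal, averaged 497 ± 197 in EGF, 261 ± 395 in PDGF with NT-3 and 83.1 ± 51.2 in PDGF samples. It was higher by 2.00 ± 0.50 in EGF than in PDGF samples (adjusted p = 0.0168) and is among the 4 called higher. Its PDGF signals lie near the pseudocount of 52.0 and far under the MOE430A array medians of 456 to 672. Evc thus had to be high in other samples to be tested, and its difference counts as no separate support. Csnk1a1, another Gli kinase, was higher in EGF than in PDGF samples by 0.37 ± 0.10 (adjusted p = 0.034). Btrc, of the ligase that marks Gli proteins, was lower (-0.53 ± 0.15, adjusted p = 0.0284), with 2 of its other probe sets opposite in sign. In PDGF with NT-3 minus PDGF Ulk3, a kinase of Gli proteins, gave -1.25 ± 0.23 (adjusted p = 0.00158), Gsk3b -0.60 ± 0.14 (adjusted p = 0.00706), Kif3a, a motor needed for cilia, -0.46 ± 0.13 (adjusted p = 0.0216) and Spop, an adaptor for degradation of Gli proteins, 1.0 ± 0.21 (adjusted p = 0.00363). For Gsk3b 2 other probe sets and for Spop 1 had the opposite sign. In EGF minus PDGF with NT-3 Prkar1a gave 0.91 ± 0.14 (adjusted p = 0.000303), Ulk3 1.03 ± 0.23 (adjusted p = 0.00486), Gsk3b 0.47 ± 0.14 (adjusted p = 0.0268) and Spop -0.67 ± 0.21 (adjusted p = 0.0306), with 2, 0, 3 and 1 further probe sets of these genes running the other way.

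All 20 listed genes that are reported elsewhere as Hedgehog targets were on the arrays, and 15 were tested. In EGF minus PDGF 3 were higher and 1 lower, and in PDGF with NT-3 minus PDGF 5 higher and 2 lower. In EGF minus PDGF with NT-3 2 were higher and 3 lower. The list medians were 0.16, 0.24 and 0.23, beside -0.03, -0.121 and 0.106 over all genes. Over all genes 6.01%, 7.12% and 13.1% were called higher and 5.64%, 12.5% and 7.8% lower. The 2 of 15 called higher in EGF minus PDGF with NT-3 lie near that share. Ccnd2, a cyclin of the G1 phase, averaged 33000 ± 4830 in EGF, 23800 ± 4780 in PDGF with NT-3 and 9580 ± 1690 in PDGF samples. It was higher than in PDGF samples by 1.79 ± 0.13 in EGF samples (limma adjusted p = 1.35e-07) and by 1.31 ± 0.16 in PDGF with NT-3 samples (adjusted p = 8.41e-05). Cdk6, a kinase that pairs with such cyclins, averaged 8130 ± 1160 in EGF, 2360 ± 1110 in PDGF with NT-3 and 1210 ± 554 in PDGF samples and was higher by 2.74 ± 0.27 in EGF than in PDGF samples (adjusted p = 3.57e-06). Hes1, a repressor also driven by Notch, was higher by 1.0 ± 0.24 in EGF than in PDGF samples (adjusted p = 0.0127), and by 1.25 ± 0.29 in PDGF with NT-3 than in PDGF samples (adjusted p = 0.00788). Nkx2-2, a homeodomain factor of ventral progenitors, averaged 662 ± 211 in EGF, 2050 ± 99.2 in PDGF with NT-3 and 1340 ± 189 in PDGF samples. It was lower in EGF than in PDGF samples (log2 difference -1.01 ± 0.22, adjusted p = 0.00719) and lower in EGF than in PDGF with NT-3 samples (-1.61 ± 0.27, adjusted p = 0.000595). Bmi1, a Polycomb protein, was higher in PDGF with NT-3 than in PDGF samples by 1.19 ± 0.22 (adjusted p = 0.00168), as was Ccnd1, another G1 cyclin, by 0.79 ± 0.17 (adjusted p = 0.00388). For Ccnd1 and for Ccnd2 1 further probe set each ran the other way in that comparison. Foxm1, a mitotic factor, was lower in PDGF with NT-3 than in PDGF samples (-0.77 ± 0.25, adjusted p = 0.0397). In EGF minus PDGF with NT-3 Cdk6 gave 1.85 ± 0.34 (adjusted p = 0.00108), Bmi1 -1.06 ± 0.22 (adjusted p = 0.00272) and Ccnd1 -0.61 ± 0.17 (adjusted p = 0.0171), with 2 further Ccnd1 probe sets running the other way. Several of these genes answer to many other signals as well.

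Probe sets of other genes with the pattern most like a member's were found by the root mean square difference of centred log2 values over the 15 samples. For Cdon, whose own values spread by a root mean square of 0.70, the nearest of 23594 were Tmem98 (0.26), Ptgfrn (0.27) and Col4a5 (0.28). For Gli3 1456067_at, with a spread of 0.82, they were Myo1e (0.27), Nfix (0.28) and Akap7 (0.30), and for Gas1 1416855_at, with a spread of 0.80, Suclg2 (0.33), Bola3 (0.33) and Ncan (0.34). Myo1e, Nfix and Akap7 differed by 1.14, 0.99 and 1.19 in EGF minus PDGF and by -1.22, -0.91 and -0.87 in PDGF with NT-3 minus PDGF, beside 0.99 and -1.10 for Gli3.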

How the data were processed

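Total RNA of 15 samples was hybridised to 1 MOE430A and 1 MOE430B array each. The deposited values are intensity signals on a linear scale, summarised per probe set with MAS5 per the submitters' processing notes, and the 2% trimmed mean of every array came to 1500.2 to 1500.8, so the authors' scaling was kept. No version of MAS5 is given in those notes. Gene names came from GEO's platform annotation, and promoter sequences and gene coordinates from RefSeq's GRCm38.p6 tables.

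Signals were taken as log2(signal + pseudocount), with the pseudocount at the 10th percentile of the array type (52.0 on MOE430A and 115 on MOE430B). Probe sets at or above their array's median on at least 3 of the 15 arrays were kept, after 64 control probe sets of each array type were left out. Both array types were stacked and a linear model was fitted in R 4.3.3 by limma 3.58.1 (lmFit with a mean per condition, contrasts, eBayes with trend, 12 residual degrees of freedom), and p-values were adjusted by Benjamini-Hochberg over all probe sets tested. The code was tested on simulated data. The number of arrays limits the precision.

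The named probe sets were the brightest of each member gene that passed the filter and every other member past the threshold, with the rest given by ranges. Smo 1442215_at and 1427048_at, the under-filter sets of Gas1, Gli3 and Shh and the fluidics-run ranges were given beyond that after their values were seen. Pathway genes were represented by their brightest probe set past the filter, and up to 4 per list and comparison were named by smallest adjusted p, with both directions named where both were present, and Hes1 was given in a further comparison after its value was seen. The members and lists were chosen with earlier results of these data known. Fluidics runs were read from the scan records. Counts without members that passed the filter in 1 condition only were added after seeing the data. Alternatives were other pseudocounts, filters, scalings, weights, blocks and samples left out.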

Additional observations from a re-analysis of the deposited data

Results flagged for a closer look

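Among 52 groups of 6 samples (26 probe sets in EGF and in PDGF samples), 6 held an outlying sample. Its gap to its nearest neighbour, as a share of the group's range, exceeded Dixon's 95% critical value. Gap and range were taken on the log2 scale of signal plus pseudocount, whereas the signals given here are linear. Chance flags about 1 in 20 groups. The share was 0.728 for Smo 1427048_at in PDGF samples, where replicate 1 had a signal of 114.8 and the next lowest 590.5. It was 0.758 for Smo 1442215_at in EGF samples, where replicate 2 had 158.7 and the next highest 83.7. For Ptch1 1439663_at in EGF samples it was 0.644, with replicate 5 at 215.9 and the next lowest at 688.4. For Hhip 1455277_at in PDGF samples it was 0.707, with replicate 5 at 648.9 and the next highest at 227.5. For Boc 1427517_at in EGF samples it was 0.737, with replicate 6 at 307.8 and the next highest at 53.0, and for Gli2 1446086_s_at in EGF samples 0.633, with replicate 1 at 153.9 and the next highest at 65.1. None of the 6 groups belongs to a probe set that passed the threshold in any of the 3 comparisons.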

How the results depend on the processing

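The count of Hedgehog probe sets called was 6 or 7 in EGF minus PDGF, 2 or 3 in PDGF with NT-3 minus PDGF and 3 to 5 in EGF minus PDGF with NT-3 under every alternative run on all samples. Leaving out each sample in turn gave 6 to 7, 1 to 2 and 3 to 4, and the count of 1 in PDGF with NT-3 minus PDGF came without PDGF with NT-3 replicate 1, when Gas1 1416855_at gave 0.99 (adjusted p = 0.0524). Array weights cut the calls over all probe sets to 3068 in PDGF with NT-3 minus PDGF, against 5116, and to 3344 in EGF minus PDGF with NT-3, against 5332. Same-numbered EGF and PDGF samples correlated at 0.02 to 0.08 in their deviations and shared fluidics runs. Of 6 EGF samples 5 correlated best with their own number, a hint of pairing from the data only. The main fit did not treat the samples as paired, and with the replicate block the counts were 6, 2 and 4.

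Leaving Gli3 1455154_at uncounted, since it passed the filter in EGF samples only, gave 5, 2 and 3, an alternative chosen after seeing the data. The EGF minus PDGF difference of that probe set was 3.78 with a pseudocount of 1 and 2.37 with the 25th percentile, against 2.95.

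Signs turned only where differences were small or where probe sets were averaged. Boc in EGF minus PDGF ran from -0.12 to 0.13 as samples were left out, Ptch1 1428853_at in PDGF with NT-3 minus PDGF from -0.02 to 0.31, Gas1 1416855_at in EGF minus PDGF with NT-3 from -0.01 to 0.50, and Cdon in PDGF with NT-3 minus PDGF from -0.25 to 0.17. The mean over a gene's probe sets gave -0.05 for Ptch1 in PDGF with NT-3 minus PDGF, -0.06 for Smo in EGF minus PDGF and -0.09 for Smo in EGF minus PDGF with NT-3, since it includes probe sets of the opposite sign. Smo 1427049_s_at passed in EGF minus PDGF with NT-3 with the 75th percentile filter (adjusted p = 0.0386) and with each array type alone (adjusted p = 0.0178), both of which test fewer probe sets together. Of 613 single values recomputed, 587 stayed on their side of the threshold with their sign, 7 newly passed, 8 no longer passed and 11 turned sign.

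The 3 probe sets of Gli1 and Gli2 stayed under the filter, and none passed the threshold without it. PDGF with NT-3 samples number 3, share no fluidics run with the others and came with more concentrated RNA.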
